A study of Mus musculus with 12 samples.

Results

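The expression profile of untreated mouse liver was described from the control group alone, which holds 3 of the 12 libraries of the series. The libraries were chosen by their label as control and are called control replicates 1, 2 and 3. The series profiled total RNA from livers of ICR mice, an outbred stock with no engineered allele named, aged 8 weeks, in 4 groups of 3 libraries: busulfan, an alkylating agent; L.J. at 10 mg/kg; busulfan plus L.J.; and control. L.J. is not spelled out in the labels, its relation to the FMT of the design text is not given, and no vehicle is named for the control group. They give neither the sex of the animals nor the time or feeding state at collection, and nothing states that the 3 control libraries came from separate animals. The values below therefore show the spread between 3 libraries, and no test between groups was made.

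The liver is built mainly of hepatocytes, which release most proteins of blood plasma and carry out the synthesis, breakdown and detoxification of metabolites. Plasma proteins are made from a small number of very abundant messenger RNAs, so a few genes can hold a large part of all liver transcripts. In mice the liver also makes the major urinary proteins (Mup), small lipocalins that carry pheromones into the urine and that are made in larger amounts by males.

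Levels are FPKM, in which fragments are counted relative to transcript length and library size, so levels of different genes can be compared. The table listed 21004 genes, of which 14336 were above 0 in all 3 control libraries and 4172 (19.9%) were listed at 0 in all 3. A mean of at least 1 FPKM was reached by 10164 genes (48.4%). The FPKM total was 562831, 659000 and 629956 in replicates 1, 2 and 3. Low values fell on steps that whole fragments would give, from which the depth was estimated at 11950000, 14530000 and 16380000 fragments. Between 69.0% and 75.4% of the low values used lay within 0.2 fragments of a whole number. Evenly spread values would give 40%, but the step was chosen from these same values, which raises the share. These depths are therefore estimates.

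Control replicate 1 stood apart from replicates 2 and 3. Across the 10164 genes, log2(FPKM + 1) in replicate 1 correlated with replicates 2 and 3 at a Pearson r of 0.961 and 0.973, whereas replicates 2 and 3 correlated at 0.989. These coefficients are across genes of single libraries and are given as a description. The median deviation of a gene from its own mean was 0.10 in replicate 1, -0.10 in replicate 2 and 0.00 in replicate 3, on the log2 scale. Values of single genes are given for each library. Shares and counts below that rest on replicate 1 are also given without it for some families and lists, not for all.

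The 14 hepatocyte markers were all present, from Alb (albumin) to Hnf4a, a transcription factor of hepatocyte identity, which read 105, 119 and 120 FPKM in replicates 1, 2 and 3. Summed levels of the markers of other liver cells were far lower. The 14 Kupffer cell and macrophage markers summed to 280, 134 and 171 FPKM, the 14 sinusoidal endothelial markers to 156, 99.9 and 137 FPKM, and the 15 stellate cell and fibroblast markers to 206, 133 and 131 FPKM. In whole tissue, fewer cells of a type and less RNA per cell cannot be told apart. The 12 cholangiocyte markers summed to 33.1, 22.7 and 28.3 FPKM, and the 13 T and NK cell markers to 6.35, 3.89 and 5.60 FPKM. The 13 neutrophil and monocyte markers summed to 11.6, 9.92 and 10.6 FPKM and the 7 B and plasma cell markers to 3.06, 2.34 and 2.58 FPKM.

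Tissues that lie next to the liver left little trace. Of 16 exocrine pancreas markers, 7 were listed at 0 in all 3 libraries (Cela3b, Cpa1, Cpb1, Prss2, Try4, Try5 and Zg16), as were Cdx2, Guca2a, Reg3b and Reg3g among 9 intestinal markers. Lep, Plin1 and Retn among 7 adipocyte markers, Myh4 and Tnnt3 among 7 skeletal muscle markers, and the neutrophil granule gene Camp were also listed at 0. The 7 muscle markers summed to 0.67, 0.02 and 0.02 FPKM and the 16 pancreas markers to 24.9, 15.1 and 19.4 FPKM, mostly Cela1, an elastase, at 24.3, 13.9 and 16.7 FPKM. Fabp2, a fatty acid binding protein of the intestine that was the highest member of its list, read 38.3, 47.0 and 54.5 FPKM. The tissue label thus matched the markers.

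The transcript pool was concentrated in few genes, and more so in replicates 2 and 3 than in replicate 1. The 10 highest genes of each library held 22.7%, 39.5% and 33.1% of its FPKM in replicates 1, 2 and 3, a mean of 31.7% ± 8.47 (SD, n = 3), or 36.3% without replicate 1. It took 69, 20 and 31 genes to reach 50% of the FPKM of these libraries. Reaching 90% took 2282, 1544 and 1813 genes. Levels of at least 1000 FPKM were listed for 69, 64 and 67 genes. This number differed less between libraries than the share of the 10 highest genes.

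The 30 genes of highest mean FPKM held 47.8% ± 8.51 of all FPKM. Of them, 27 encode secreted proteins and 3 encode proteins kept in the cell: Fabp1, Cyp2e1 and Ftl1. The 12 Mup genes among the 30 held 11.9%, 37.0% and 29.7% of the FPKM in replicates 1, 2 and 3. The other 18 genes held 26.7%, 18.4% and 19.8%. A range of at least 2-fold between the highest and the lowest library, on the FPKM + 1 scale, was seen for 11 of the 30 genes. All 11 were Mup genes, and none of the other 18 genes reached it. Over all 10164 genes, 683 (6.72%) reached that range.

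**Figure D1:**
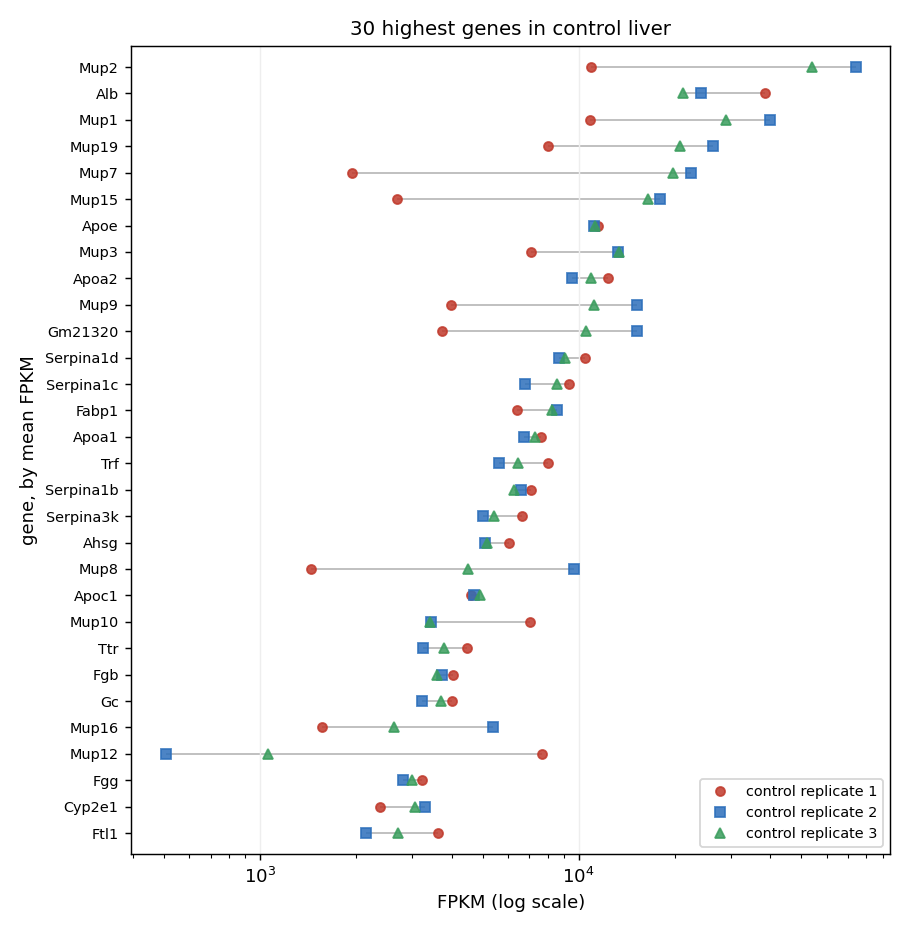
Levels of the 30 genes of highest mean FPKM in control liver, from highest to lowest; the horizontal axis is FPKM on a log scale, each point is 1 library (control replicates 1, 2 and 3) and the grey line spans the 3 values. The Mup genes spread widely, with Mup2 between 10941 and 74222 FPKM, while Apoe lies between 11213 and 11535 FPKM.

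Alb encodes albumin, the main carrier protein of plasma (gene ID 11657, chromosome 5, 90460870 to 90476602 on GRCm38.p6, which has the coordinates of mm10). It read 38530, 24142 and 21329 FPKM in replicates 1, 2 and 3, and was the highest gene of replicate 1 but the fourth highest of replicate 2. Replicate 1 lay above the other libraries. Trf, the iron carrier transferrin (chromosome 9, 103208876 to 103230286), read 7986, 5607 and 6455 FPKM. Ttr, which carries thyroid hormone and retinol-binding protein, read 4455, 3248 and 3792 FPKM. Gc, the vitamin D binding protein, read 3994, 3226 and 3699 FPKM. All 4 carriers named were highest in replicate 1, as were 5914 of all 10164 genes. The 15 plasma carrier genes together held 8.15% ± 2.73 of the FPKM, or 6.58% without replicate 1. The only member with a 2-fold range was Hpx, hemopexin, which binds haem, at 2083, 961 and 1127 FPKM.

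The apolipoproteins, the protein parts of lipoprotein particles, held 6.60% ± 0.968, or 6.07% without replicate 1. Apoe, a ligand for the clearance of lipoprotein remnants (chromosome 7, 19696244 to 19701310), read 11535, 11213 and 11255 FPKM. On the deposited scale it was the steadiest of the 30 genes, and its 3 values lay within 1.03-fold. As a share of library FPKM, Apoe held 2.05%, 1.70% and 1.79% in replicates 1, 2 and 3, so its steadiness depended on the scale. Apoa2 and Apoa1, the main proteins of high-density lipoprotein, read 12371, 9535 and 10950 FPKM and 7634, 6723 and 7286 FPKM. Apoc1 read 4596, 4696 and 4908 FPKM. Of the 14 apolipoprotein genes with a mean of at least 1 FPKM, 2 (14.3%, against 6.72% of all genes) had a 2-fold range, in opposite directions. Apoc4 read 1084, 320 and 439 FPKM and was highest in replicate 1, whereas Apoc2, the activator of lipoprotein lipase, read 54.9, 160 and 117 FPKM and was lowest there.

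The serpins, which inhibit proteases of plasma, held 5.84% ± 1.11, or 5.23% without replicate 1. The alpha-1 antitrypsin genes are present in mice as several close copies, and Serpina1d, Serpina1c and Serpina1b were all among the 30 highest. Serpina1d (chromosome 12, 103763587 to 103773633) read 10442, 8694 and 9055 FPKM. Serpina1c read 9326, 6804 and 8543 FPKM, and Serpina1b 7074, 6584 and 6272 FPKM. The 5 copies share a median of 96.6% of their coding bases, and between 38.2% and 80.9% of the 100-base coding stretches of a copy are found in no other copy, so the split between copies is uncertain. Serpina1a, a less abundant copy, read 386, 1040 and 997 FPKM and was lowest in replicate 1. Serpina1e, at 246, 75.9 and 88.2 FPKM, was highest there. Serpina3k, a relative of antichymotrypsin, read 6645, 4996 and 5419 FPKM.

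Fibrinogen, the clotting protein, is built from the chains encoded by Fga, Fgb and Fgg, which are neighbours on chromosome 3. Fgb read 4044, 3726 and 3583 FPKM, Fgg 3226, 2811 and 3009 FPKM, and Fga 2885, 2636 and 2609 FPKM. The 3 chains thus kept close to each other in every library, and all 3 were highest in replicate 1, with the widest range, 1.15-fold, in Fgg. On this scale 5914 of all 10164 genes were highest in replicate 1. Ahsg, fetuin A, an inhibitor of mineral deposition, read 6030, 5089 and 5173 FPKM. The 23 coagulation genes held 2.47% ± 0.356, and all had a mean of at least 1 FPKM. Of the FPKM without the Mup genes they held 3.27%, 3.53% and 3.38% in replicates 1, 2 and 3, so replicate 1 was lowest there. The complement and lectin genes held 1.32% ± 0.319, led by C3, the central complement component, at 2458, 1479 and 1493 FPKM. Hc, complement C5, read 120, 49.6 and 59.5 FPKM, and C6, of the membrane attack complex, 50.5, 34.3 and 86.8 FPKM, so their far libraries were not the same.

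Promoter sequences from RefSeq are shown for 4 of the 30 genes, chosen because each holds a half-site of the hepatocyte factor HNF1 and because they stand for a carrier protein, a protease inhibitor, a clotting protein and a cytosolic lipid carrier. Each runs from 250 bases before the gene start to 50 bases after it on GRCm38.p6, and capitals mark the HNF1 half-site GTTAAT on either strand and the TATA box TATAAA on the strand of the gene.
Alb, chr5:90460620-90460919, plus strand: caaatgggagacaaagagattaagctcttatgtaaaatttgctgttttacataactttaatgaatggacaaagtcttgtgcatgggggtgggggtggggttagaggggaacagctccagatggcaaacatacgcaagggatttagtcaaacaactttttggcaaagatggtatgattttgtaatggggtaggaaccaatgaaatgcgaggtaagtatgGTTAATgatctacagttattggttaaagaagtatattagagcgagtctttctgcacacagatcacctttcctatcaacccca
Serpina1d, chr12:103773584-103773883, minus strand: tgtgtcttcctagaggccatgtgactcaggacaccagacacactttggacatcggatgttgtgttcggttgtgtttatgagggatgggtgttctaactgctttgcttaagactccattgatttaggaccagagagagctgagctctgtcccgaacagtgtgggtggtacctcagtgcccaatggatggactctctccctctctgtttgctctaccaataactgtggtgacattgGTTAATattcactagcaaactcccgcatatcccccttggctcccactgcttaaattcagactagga
Fgb, chr3:83049814-83050113, minus strand: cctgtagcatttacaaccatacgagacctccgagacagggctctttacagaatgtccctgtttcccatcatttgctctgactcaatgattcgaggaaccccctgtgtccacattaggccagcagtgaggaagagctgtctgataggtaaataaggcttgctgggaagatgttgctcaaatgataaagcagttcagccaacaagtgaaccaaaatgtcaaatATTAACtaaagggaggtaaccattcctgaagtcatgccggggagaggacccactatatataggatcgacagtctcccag
Fabp1, chr6:71199629-71199928, plus strand: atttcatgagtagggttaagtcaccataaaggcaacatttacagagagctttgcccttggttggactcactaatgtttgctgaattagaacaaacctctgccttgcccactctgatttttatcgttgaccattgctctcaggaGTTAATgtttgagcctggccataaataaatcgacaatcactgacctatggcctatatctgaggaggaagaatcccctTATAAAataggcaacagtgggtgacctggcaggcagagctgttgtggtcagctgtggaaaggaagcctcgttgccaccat

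In these windows the half-site begins 32 bases before the listed start of Alb, 16 before that of Serpina1d, 29 before that of Fgb and 107 before that of Fabp1. The TATA letters are in the Fabp1 window, where they begin 30 bases before the start. RefSeq windows were matched for 21 of the 30 highest genes, with 24 windows in all, and 8 of these windows (33.3%) held GTTAAT on either strand. Among 20204 windows of the genes in the table, 5.85% held it. The 8 windows include those of the close copies Serpina1b, Serpina1c and Serpina1d, so they are not independent of each other. For the 100 highest genes the share with GTTAAT was 18.4% of 87 windows. TATAAA was present in 19.5% of those 87 windows against 7.31% of the windows of all genes in the table. The C/EBP letters TTNNGCAA, searched on both strands, were present in 19.5% against 9.91%. No overlap between the GTTAAT and TATAAA matches is seen in the 4 windows, and a match is a description of letters, not of binding.

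The metabolic genes among the 30 highest had no common order. Fabp1, the liver fatty acid binding protein (chromosome 6, 71199879 to 71205034), read 6425, 8530 and 8274 FPKM and was lowest in replicate 1. Cyp2e1, a cytochrome P450 that oxidises ethanol and small solvents (chromosome 7, 140763819 to 140774990), read 2381, 3296 and 3055 FPKM. Ftl1, the light chain of ferritin, read 3623, 2157 and 2706 FPKM and was highest in replicate 1. None of these 3 genes had a 2-fold range, the widest being 1.68-fold for Ftl1.

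The secreted families together held 54.3% ± 7.27 of the FPKM (46.4%, 60.7% and 55.9% in replicates 1, 2 and 3), and 58.3% without replicate 1. The metabolic families held 16.1% ± 2.58 (18.9%, 13.8% and 15.5%), and 14.7% without replicate 1. Cytosolic ribosomal, translation, secretory pathway and cytoskeleton genes held 4.18% ± 1.00. The 19933 genes in no family held 25.2% of the FPKM, led by B2m, the light chain of MHC class I, at 2212, 1827 and 2449 FPKM and by Car3, a carbonic anhydrase, at 1957, 2088 and 1557 FPKM. Shares of FPKM weigh each gene per length and are not shares of sequenced fragments.

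Because a share depends on all other genes, the family shares were also taken of a total without the Mup genes. The secreted families then held 38.8%, 36.8% and 36.2%, a mean of 37.3% ± 1.38, and the metabolic families 21.5%, 22.2% and 22.5%, a mean of 22.1% ± 0.483. The spread between libraries shrank in both classes. The serpins held 8.06%, 7.85% and 8.06% of that total, the apolipoproteins 8.73%, 9.22% and 9.27%, and the nuclear-encoded respiratory chain genes 2.42%, 2.42% and 2.45%. The plasma carriers still differed, at 12.9%, 10.4% and 9.65%, with Alb as their highest member.

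**Figure D2:**
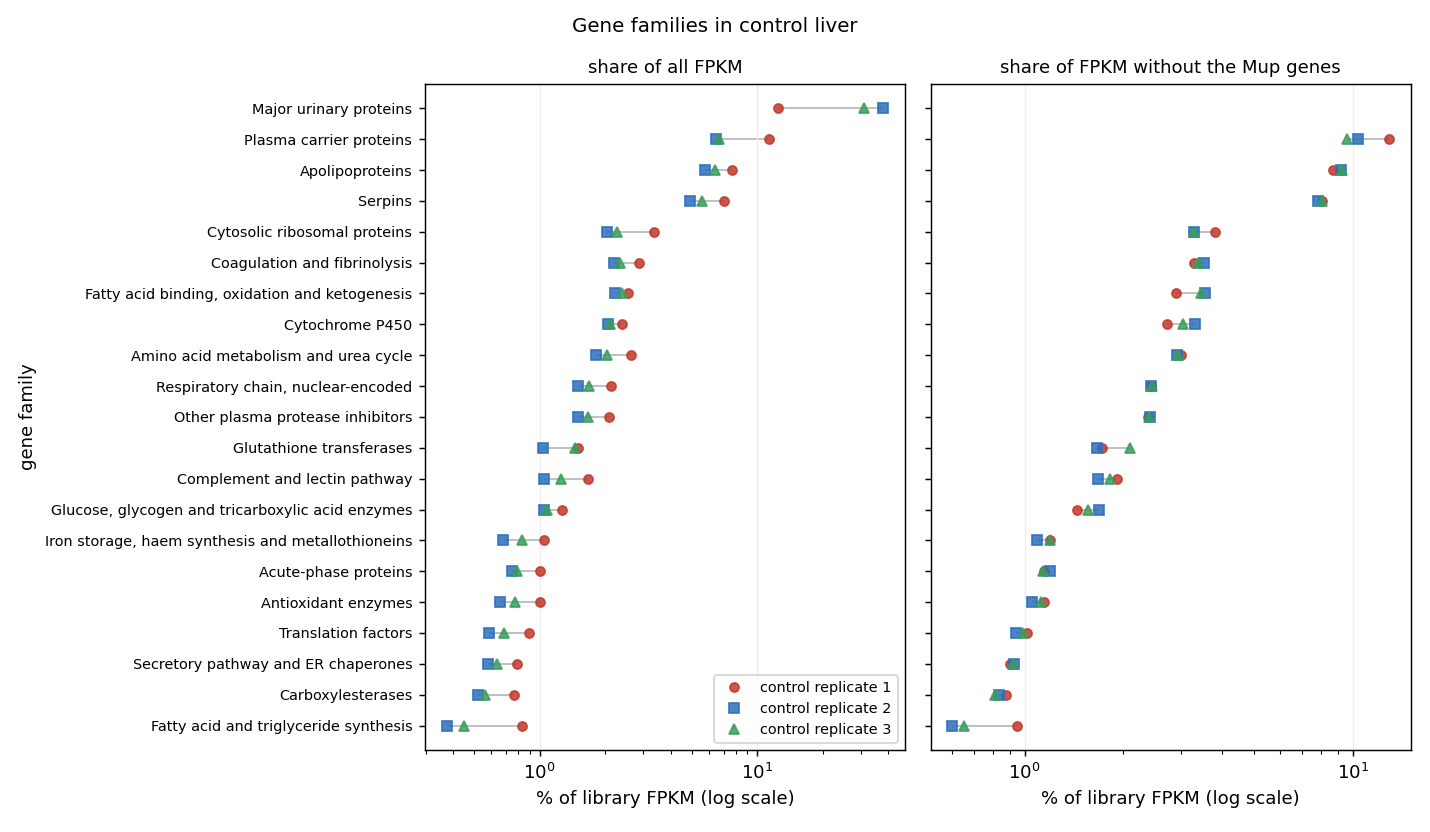
Share of library FPKM held by each gene family with a mean share of at least 0.5%, in % on a log scale, as part of all FPKM (left) and of FPKM without the Mup genes (right); points are control replicates 1, 2 and 3. Families other than Mup lie highest in replicate 1 on the left, and several draw together on the right, as for serpins at 7.85% to 8.06%, while plasma carriers still differ at 12.9%, 10.4% and 9.65%.

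Among the metabolic families, fatty acid binding, oxidation and ketogenesis held the largest share of all FPKM, 2.38% ± 0.165, with Fabp1 and the sterol carrier Scp2 (1624, 1481 and 1750 FPKM) as its highest members. The cytochrome P450 family held 2.18% ± 0.172, and 58 of its 99 genes had a mean of at least 1 FPKM. After Cyp2e1 its highest members were Cyp3a11, which oxidises many drugs, at 1793, 2499 and 1674 FPKM, Cyp2c29 at 1312, 1221 and 1077 FPKM, and Cyp2f2 at 1059, 1041 and 1175 FPKM. Between replicates 2 and 3, 6 of the 58 (10.3%) differed 2-fold, against 0.915% of all genes. A 2-fold range over all 3 libraries was seen in 18 of the 58 (31.0%, against 6.72% of all genes). Among these were Cyp46a1, a cholesterol hydroxylase, which read 9.93, 40.2 and 47.1 FPKM and was lowest in replicate 1, and Cyp2b10, a phenobarbital-inducible P450, which read 5.39, 1.18 and 0.42 FPKM and was highest there.

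Amino acid and urea cycle genes held 2.16% ± 0.426, and all 69 had a mean of at least 1 FPKM. Ass1, which joins citrulline and aspartate in the urea cycle, led them at 1626, 1353 and 1455 FPKM, followed by Bhmt, which remethylates homocysteine, at 1177, 1017 and 1042 FPKM. A 2-fold range was seen in 4 of the 69 (5.80%, against 6.72% of all genes), among them Gnmt, a glycine methyltransferase, at 1157, 542 and 648 FPKM. Glutathione transferases held 1.33% ± 0.256, with Gstp1 at 2677, 1720 and 2988 FPKM and Mgst1 at 2403, 1891 and 2098 FPKM. Glucose, glycogen and tricarboxylic acid enzymes held 1.13% ± 0.117. Of the 58 with a mean of at least 1 FPKM, 6 (10.3%) had a 2-fold range. None of the 58 differed 2-fold between replicates 2 and 3, against 0.915% of all genes.

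On the deposited FPKM scale, some single enzymes hardly varied. Ces3a, a carboxylesterase, read 1111, 1097 and 1100 FPKM, within 1.01-fold. Gulo, the last enzyme of ascorbate synthesis, read 141, 142 and 146 FPKM, and Cat, catalase, 1384, 1365 and 1463 FPKM.

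The 17 bile acid conjugation and transport genes had no member with a 2-fold range, which for 17 genes is near the 6.72% of all genes. Their median SD of log2(FPKM + 1) was 0.23, against 0.19 for all genes. Their highest member was Slc10a1, the sodium-dependent bile acid uptake carrier, at 396, 616 and 506 FPKM.

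The Mup family held the largest share of FPKM of the 34 families. Its 22 genes lie in 1 cluster on chromosome 4 (59956804 to 62150841) and all had a mean of at least 1 FPKM. They held 12.4%, 37.7% and 30.9% of the FPKM in replicates 1, 2 and 3, a mean of 27.0% ± 13.1, or 34.3% without replicate 1. Chromosome 4 as a whole held 15.8%, 40.3% and 33.8%. Of the 22 genes, 17 were lowest in replicate 1 and 15 were highest in replicate 2. A 2-fold range was reached by 19 of the 22, against 6.72% of all genes.

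Mup2 (gene ID 17841, chromosome 4, 60135913 to 60139977) was the highest gene by mean FPKM. It read 10941, 74222 and 54194 FPKM in replicates 1, 2 and 3, so that it was the fourth gene of replicate 1 and the first of the other libraries. Mup1 read 10887, 39873 and 28962 FPKM and Mup19 7998, 26356 and 20874 FPKM. All 3 were lowest in replicate 1. Mup7 read 1946, 22529 and 19795 FPKM and Mup15 2693, 18010 and 16533 FPKM. Mup9, at 3970, 15295 and 11163 FPKM, and Gm21320, which RefSeq names Mup22, at 3730, 15276 and 10527 FPKM, were likewise lowest in replicate 1. Mup8, Mup16 and Mup17 followed the same order, with 1450, 9703 and 4500 FPKM for Mup8.

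A few members went the other way. Mup12 read 7676, 506 and 1063 FPKM, Mup10 7036, 3446 and 3409 FPKM, and Mup13 200, 20.2 and 27.7 FPKM, all highest in replicate 1. Mup14 read 808 FPKM in replicate 1 and 360 FPKM in replicate 3, and was listed at 0 in replicate 2. Mup18 differed little, at 113, 113 and 82.6 FPKM.

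The members are nearly identical in sequence, as the first part of the coding sequence shows for a member low in replicate 1 (Mup2), another low one (Mup7), a high one (Mup12) and the one listed at 0 in replicate 2 (Mup14). Coding bases 19 to 138 of GENCODE M21 transcripts are given, with capitals at bases that differ from Mup2.
Mup2: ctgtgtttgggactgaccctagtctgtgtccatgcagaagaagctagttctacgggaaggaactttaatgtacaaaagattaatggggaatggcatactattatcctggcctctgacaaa
Mup7: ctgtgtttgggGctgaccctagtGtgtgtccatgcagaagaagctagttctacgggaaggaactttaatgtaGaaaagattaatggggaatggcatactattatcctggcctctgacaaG
Mup12: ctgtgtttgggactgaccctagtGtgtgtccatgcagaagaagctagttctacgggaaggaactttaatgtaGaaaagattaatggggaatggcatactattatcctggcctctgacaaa
Mup14: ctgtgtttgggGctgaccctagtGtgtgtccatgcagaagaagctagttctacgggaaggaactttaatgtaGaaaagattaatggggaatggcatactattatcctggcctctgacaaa

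Over the whole coding sequence of 540 bases, Mup12 differs from Mup2 at 3 bases, Mup14 at 4 and Mup7 at 7. Across the 231 pairs of the 22 genes, coding identity had a median of 98.3% and ran from 82.1% to 99.8%. Of the 100-base coding stretches of Mup2, 2.95% occur in no other member, and for Mup19, Mup9, Gm21320, Mup18 and Mup11 none do. In RefSeq promoter windows of 14 Mup genes, the D-box letters TTATGNAA were found on either strand in 10 (71.4%), against 2.87% of the 20204 windows of genes in the table. The 14 windows come from a cluster of closely related genes, and these letters are a description of the windows. The split of fragments between these members is therefore uncertain, and the sum over the family is the firmer value.

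The 6 members with at least 94.1% of such stretches to themselves are Mup3, Mup20, Mup21, Mup5, Mup6 and Mup4, and all 6 were lowest in replicate 1. Together they held 1.44%, 2.38% and 2.998% of the FPKM in replicates 1, 2 and 3. The other 16 members held 10.9%, 35.4% and 27.9%. Mup3 (chromosome 4, 62083476 to 62087317) read 7076, 13242 and 13344 FPKM. Mup20, which encodes the pheromone darcin, read 601, 1589 and 3870 FPKM, and Mup21 399, 746 and 1616 FPKM. The assignable members thus shared the low values of replicate 1, while replicate 3, not replicate 2, was highest for Mup3, Mup20 and Mup21.

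**Figure D3:**
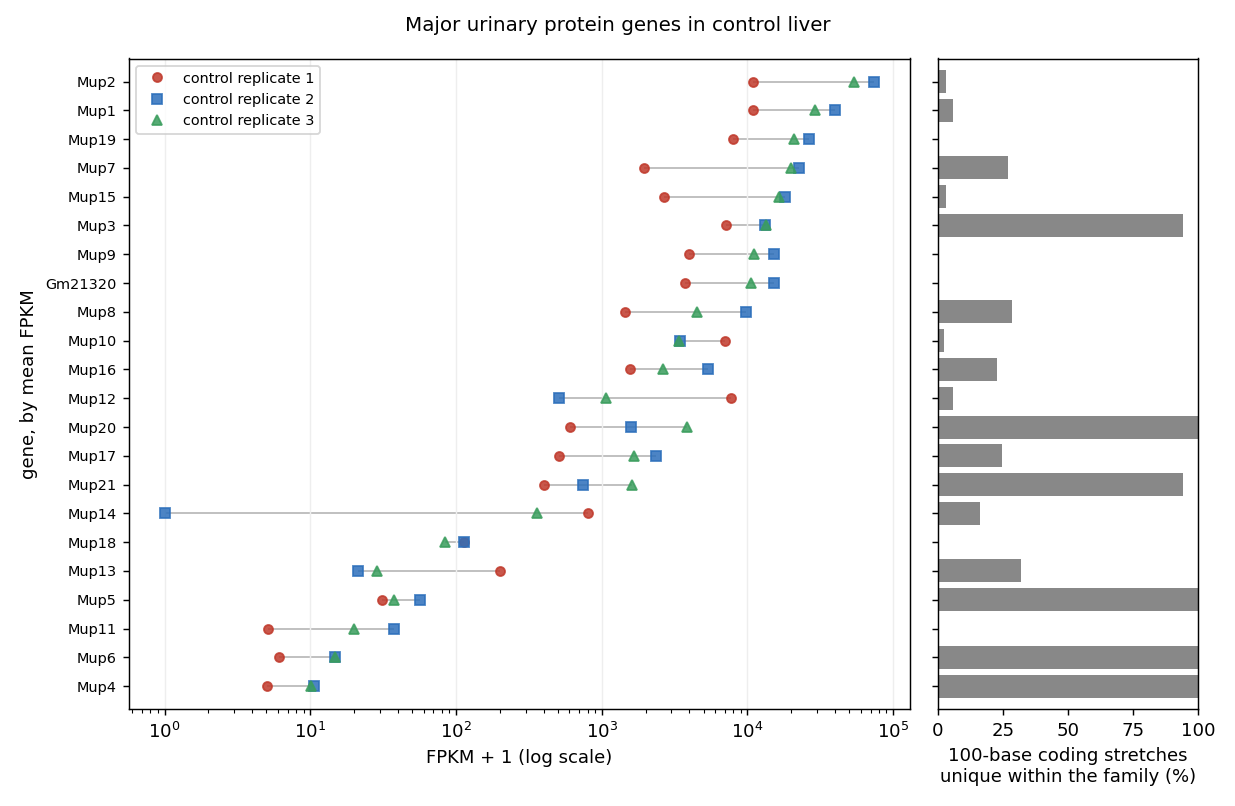
The 22 Mup genes in control liver by mean FPKM: left, FPKM + 1 on a log scale in control replicates 1, 2 and 3; right, the % of 100-base coding stretches found in no other member. Replicate 1 is lowest for 17 genes, and the 6 genes with long bars at right, such as Mup20 at 601 to 3870 FPKM, are among them.

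Over all 10164 genes, the median gene had an SD of 0.19 on the log2(FPKM + 1) scale and a coefficient of variation of 15.9%. Outside the Mup family the median SD was also 0.19, and 664 of 10142 genes (6.55%) had a 2-fold range. The haemoglobins spread more widely than the Mup genes, with a median SD of 1.56 against 1.04 and 6 of 7 genes with a 2-fold range. Of the 683 genes with a 2-fold range, replicate 1 was the library farthest from the other libraries in 523 (76.6%), high in 397 and low in 126. Replicate 2 was the far one in 125 and replicate 3 in 35. Without replicate 1, 93 genes (0.915%) had a 2-fold difference between replicates 2 and 3. The higher values of replicate 1 depended on the scaling: with each library scaled to the same median, replicate 1 was the far library in 415 of 557 genes, high in 201 and low in 214.

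The 25 genes that varied most, with predicted genes left out, included 5 Mup genes and 4 haemoglobin genes, and replicate 1 was the far library in 21 of them, high in 15 and low in 6. The haemoglobins, made by red cells and their precursors, came in both directions. Hba-a1, alpha globin, read 1407, 270 and 330 FPKM and Hbb-b1, beta globin, 797, 34.0 and 51.5 FPKM, both highest in replicate 1. Hbb-b2 read 90.9, 2.96 and 4.56 FPKM and Hba-a2 13.8, 0.71 and 4.39 FPKM. Hbb-bs and Hbb-bt went the other way, at 5.09, 27.0 and 51.6 FPKM and 0.78, 4.58 and 7.22 FPKM.

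Hbb-b1 and Hbb-b2 are the adult beta globin genes of the d haplotype of the mouse beta globin locus, and Hbb-bs and Hbb-bt those of the s haplotype. Hbb-b1 and Hbb-b2 made up 99.3% of the summed FPKM of the 4 genes in replicate 1, 53.9% in replicate 2 and 48.8% in replicate 3. The sums were 894, 68.5 and 115 FPKM. Of the 7 haemoglobin genes with a mean of at least 1 FPKM, 1 differed 2-fold between replicates 2 and 3, against 0.915% of all genes. Hbb-bs and Hbb-bt share 99.8% of their coding bases, as do Hba-a1 and Hba-a2, so values of single globin genes are uncertain. Alas2, the first enzyme of haem synthesis in red cell precursors, read 101, 64.6 and 89.5 FPKM and was within a 2-fold range. The 16 erythroid markers summed to 2426, 411 and 547 FPKM, and Gata1, a factor of red cell precursors, did not reach 1 FPKM in any library.

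**Figure D4:**
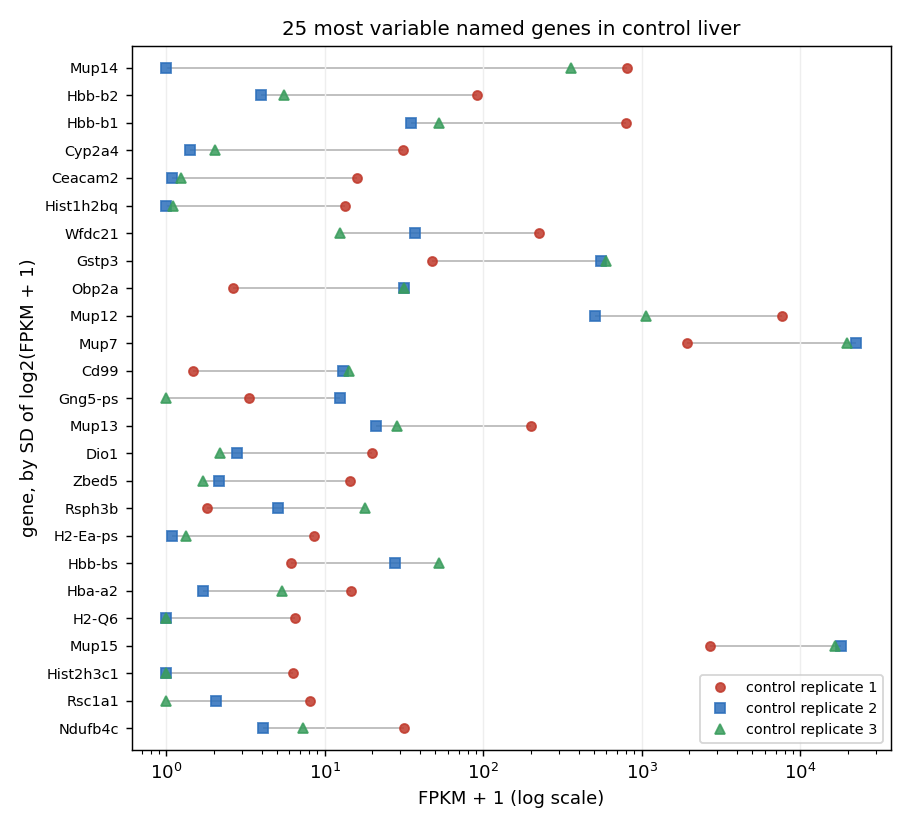
The 25 genes with the largest SD of log2(FPKM + 1) between the 3 control libraries, predicted genes left out; the horizontal axis is FPKM + 1 on a log scale and points are control replicates 1, 2 and 3. In most rows replicate 1 lies alone, as for Hbb-b1 at 797 against 34.0 and 51.5 FPKM and Gstp3 at 46.7 against 550 and 599 FPKM.

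Several further members of the 25 were enzymes. Cyp2a4, a steroid hydroxylase higher in female liver, read 30.1, 0.42 and 1.02 FPKM. Gstp3, a pi-class glutathione transferase on chromosome 19 (4057470 to 4059605), read 46.7, 550 and 599 FPKM. Its coding sequence has no 100-base stretch in common with Gstp1 or Gstp2. Dio1, the deiodinase that activates thyroid hormone in liver (chromosome 4, 107291465 to 107307168), read 18.9, 1.80 and 1.19 FPKM. Ndufb4c, a copy of a respiratory complex I subunit gene, read 30.6, 3.10 and 6.33 FPKM.

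Secreted, surface and MHC genes made up another group. Obp2a, an odorant-binding lipocalin, read 1.66, 30.7 and 30.5 FPKM, and Wfdc21, of the whey acidic protein family, 226, 36.1 and 11.5 FPKM. Ceacam2, a cell adhesion molecule, read 15.1, 0.09 and 0.24 FPKM, and Cd99, a surface glycoprotein, 0.47, 12.2 and 13.2 FPKM. Obp2a and Cd99 were low in replicate 1, whereas Wfdc21 and Ceacam2 were high there. Of the MHC region, H2-Ea-ps read 7.58, 0.09 and 0.34 FPKM, and H2-Q6 read 5.46 FPKM in replicate 1 and was listed at 0 in replicates 2 and 3.

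The other members of the 25 were low. Hist1h2bq read 12.5, 0 and 0.1 FPKM and Hist2h3c1 5.35, 0 and 0 FPKM, both histone genes. Zbed5, a zinc finger gene, read 13.4, 1.17 and 0.71 FPKM, and Rsc1a1, a regulator of solute carriers, 7.05, 1.07 and 0 FPKM. Rsph3b, a radial spoke gene, read 0.8, 4.11 and 16.9 FPKM and the pseudogene Gng5-ps 2.31, 11.5 and 0 FPKM. In these last 2 genes the far library was replicate 3 and replicate 2.

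At the other end, 5 genes with a mean of at least 10 FPKM had the smallest SD on the deposited scale. Their steadiness under other scalings was not tested. Ube2a, a ubiquitin-conjugating enzyme, read 10.03, 10.05 and 10.06 FPKM. Emc2, of the membrane protein insertion complex of the endoplasmic reticulum, read 22.4, 22.2 and 22.3 FPKM, and Unc50 15.6, 15.5 and 15.5 FPKM. Cops7a, a subunit of the COP9 signalosome, read 30.1, 30.4 and 30.3 FPKM, and Lypla2, a lysophospholipase, 31.0, 30.7 and 30.7 FPKM.

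Spread also differed with level. A 2-fold range was seen in 5.85% of genes with a mean of 1 to 3 FPKM, 5.26% from 3 to 10 FPKM, 8.14% from 10 to 100 FPKM, 9.68% from 100 to 1000 FPKM and 22.4% of the 67 genes from 1000 FPKM. The 15 genes behind that last share were Mup genes, Hpx and Scd1, a desaturase of fatty acid synthesis.

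Lipogenic genes were highest in replicate 1. Of 9 lipogenic genes that rise on feeding, all 9 were highest in replicate 1 and 7 (77.8%, against 6.72% of all genes) had a 2-fold range. Scd1, the stearoyl-CoA desaturase (2477, 834 and 1046 FPKM), Fasn, fatty acid synthase (87.9, 19.2 and 18.4 FPKM), Acly, which makes cytosolic acetyl-CoA (130, 38.7 and 49.3 FPKM), and Srebf1, their transcription factor (61.2, 14.4 and 22.5 FPKM), are examples. Replicates 2 and 3 lay close together for Fasn and Scd1. Over all 10164 genes, 5914 were highest in replicate 1. After scaling to the same median, 4290 of all genes and still 9 of the 9 lipogenic genes were. Between replicates 2 and 3, none of the 9 differed 2-fold, against 0.915% of all genes. The wider family of fatty acid and triglyceride synthesis was less uniform: of its 24 genes with a mean of at least 1 FPKM, 20 were highest and 4 lowest in replicate 1, and 12 had a 2-fold range. Elovl3, a fatty acid elongase, was lowest there, at 32.9, 82.0 and 178 FPKM. Between replicates 2 and 3, 2 of the 24 family members differed 2-fold.

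The 17 cholesterol synthesis genes were likewise all highest in replicate 1, and 7 (41.2%, against 6.72% of all genes) had a 2-fold range. Fdps, which makes farnesyl diphosphate, read 247, 49.1 and 65.7 FPKM. Lss, lanosterol synthase, read 19.8, 5.35 and 7.52 FPKM. Sc5d, the most abundant member, differed less, at 229, 173 and 164 FPKM. Scaled to the same median, 15 of the 17 were highest in replicate 1. Between replicates 2 and 3, none of the 17 differed 2-fold, against 0.915% of all genes.

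Fasting genes were most often highest in replicate 2. Of 18 genes of the fasting and glucocorticoid response, 11 were highest in replicate 2, 7 in replicate 1 and 0 in replicate 3, whereas 1707 of all 10164 genes were highest in replicate 2. After scaling to the same median, 13 of the 18 and 3517 of all genes were highest in replicate 2, and after scaling to the same total 8 of the 18 and 890 of all genes. A 2-fold range was seen in 6 of the 18 (33.3%, against 6.72% of all genes). Between replicates 2 and 3, 2 of the 18 (11.1%, against 0.915% of all genes) differed 2-fold. Pck1, the rate-limiting enzyme of glucose synthesis, read 249, 1079 and 685 FPKM and was lowest in replicate 1. Lpin1, a phosphatidate phosphatase, read 19.5, 64.4 and 20.4 FPKM and was high in replicate 2 alone. Pdk4, which shuts off pyruvate oxidation, read 5.80, 1.68 and 3.02 FPKM and was highest in replicate 1. Tat and G6pc, at 437, 412 and 433 FPKM and 167, 216 and 200 FPKM, were within a 2-fold range.

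Clock genes went in both directions. Nr1d1, the repressor REV-ERB alpha, read 14.1, 85.6 and 73.9 FPKM, Dbp, a D-box factor, 0.27, 7.65 and 3.83 FPKM, and Per1, a repressor of the core loop, 0.89, 10.4 and 4.11 FPKM. All 3 were lowest in replicate 1. Arntl (BMAL1), an activator of the core loop, read 13.3, 4.73 and 8.65 FPKM, and its partner Npas2 3.70, 0.91 and 1.40 FPKM. Both were highest in replicate 1. Of the 16 clock and output genes with a mean of at least 1 FPKM, 7 (43.8%) had a 2-fold range on the deposited scale, against 6.72% of all genes. The count was also 7 under each of the 4 other scalings, where 541 to 1040 of all 10164 genes had such a range. Between replicates 2 and 3, 1 of the 16 differed 2-fold, against 0.915% of all genes. The part of collection time in these values was not tested, since the labels give no time.

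**Figure D5:**
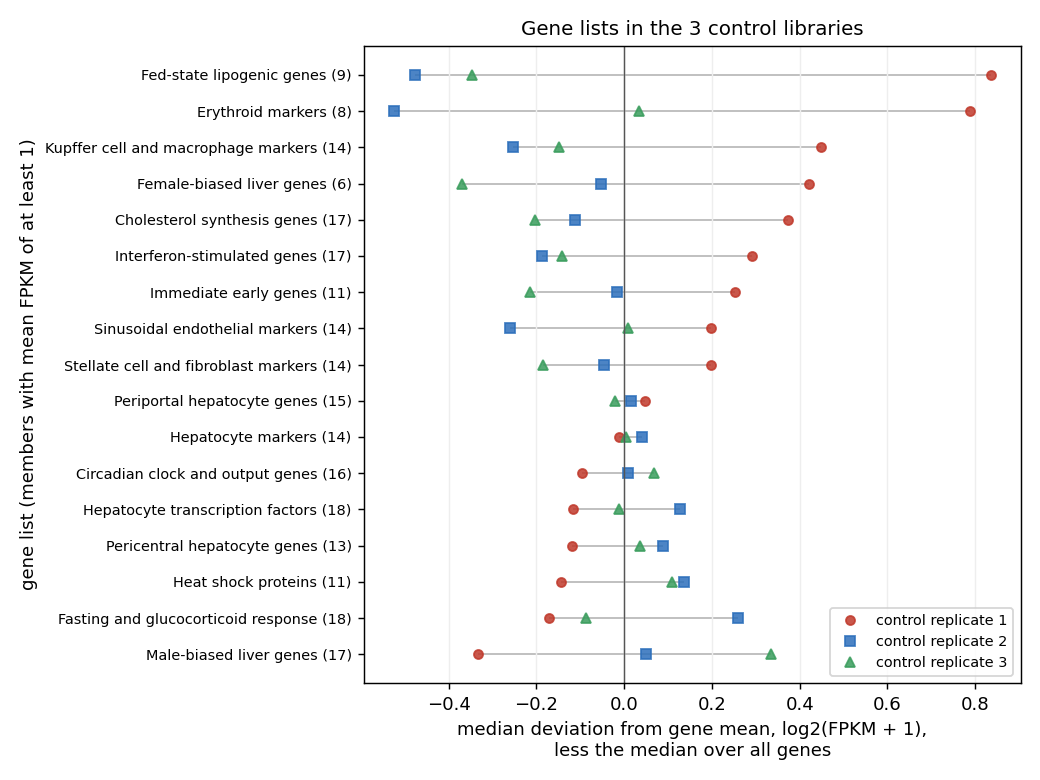
Median deviation of the members of each gene list from their own mean over the 3 libraries, in log2(FPKM + 1) and relative to the median of all genes; points are control replicates 1, 2 and 3, and the number of members with a mean of at least 1 FPKM is in brackets. Replicate 1 lies highest for lipogenic genes (0.84) and lowest for male-biased genes (-0.33), while hepatocyte markers lie near 0.

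Markers of Kupffer cells, endothelium and stellate cells were mostly highest in replicate 1. Of 14 Kupffer cell and macrophage markers, 13 were highest there, and 7 (50%, against 6.72% of all genes) had a 2-fold range. Csf1r, the receptor for macrophage colony-stimulating factor, read 11.6, 3.68 and 5.56 FPKM, Marco, a scavenger receptor, 6.05, 2.35 and 1.96 FPKM, and C1qa, a subunit of complement C1q, 41.8, 18.6 and 21.7 FPKM. Scaled to the same median, 12 of the 14 were highest in replicate 1 and 4 had a 2-fold range, against 5.48% of all genes. Of 14 endothelial markers 12 were highest in replicate 1, and 8 after that scaling. For the 14 stellate cell and fibroblast markers with a mean of at least 1 FPKM these counts were 10 and 8. As given above, 5914 of all 10164 genes were highest in replicate 1, and 4290 after that scaling. Between replicates 2 and 3, 1 of the 14 Kupffer cell markers and none of the endothelial or stellate cell markers differed 2-fold. Over all genes, 0.915% did. Few markers of most other cell types had a mean of at least 1 FPKM. Highest in replicate 1 were 1 of 3 cholangiocyte, 1 of 3 neutrophil and monocyte, 0 of 1 B cell and 0 of 1 adipocyte markers. The same held for 1 of 1 T and NK cell, 1 of 1 exocrine pancreas, 1 of 2 intestinal and 6 of 8 erythroid markers.

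All 17 interferon-stimulated genes with a mean of at least 1 FPKM were highest in replicate 1, also under each of the other scalings. A 2-fold range was seen in 3 of the 17 (17.6%, against 6.72% of all genes). Irf7, a transcription factor of the interferon response, read 20.3, 7.89 and 11.5 FPKM and Ifi27l2a 8.44, 3.17 and 3.54 FPKM. After scaling to the same median, 1 of the 17 had a 2-fold range, against 5.48% of all genes. Between replicates 2 and 3, 0 of the 17 differed 2-fold, against 0.915% of all genes. Acute-phase genes were mixed: Hp, haptoglobin, read 1214, 566 and 575 FPKM and Lcn2, lipocalin 2, 17.0, 3.56 and 4.33 FPKM, whereas Hamp, hepcidin, read 1617, 2019 and 1935 FPKM. The part of the other cell types in these values was not tested.

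Sex-biased genes were read because the labels give no sex. The Y-linked genes Eif2s3y (28.5, 32.8 and 35.2 FPKM), Ddx3y (16.2, 13.4 and 15.7 FPKM), Uty (4.62, 4.41 and 4.50 FPKM) and Kdm5d (3.45, 3.48 and 3.65 FPKM) were present in all 3 libraries at close levels. The 18 male-biased liver genes summed to 7858, 28247 and 29879 FPKM. Most of the sum in replicates 2 and 3 was Mup7, at 1946, 22529 and 19795 FPKM in replicates 1, 2 and 3. Only 27.0% of the 100-base coding stretches of Mup7 occur in no other Mup gene, so its value and these sums are uncertain. Gstp1, at 2677 FPKM, was the highest member in replicate 1. Of the 17 male-biased genes with a mean of at least 1 FPKM, 13 were highest in replicate 3 and 12 lowest in replicate 1. Over all 10164 genes, 2543 were highest in replicate 3 and 2549 lowest in replicate 1. Scaled to the same median, 12 of the 17 and 4159 of all genes were lowest in replicate 1. A 2-fold range was seen in 8 of the 17 (47.1%, against 6.72% of all genes). Between replicates 2 and 3, 5 of the 17 (29.4%, against 0.915% of all genes) differed 2-fold. Elovl3 read 32.9, 82.0 and 178 FPKM and Ugt2b38 0.73, 2.45 and 6.88 FPKM. Hsd3b5, a steroid dehydrogenase of male liver, read 147, 160 and 218 FPKM.

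Of 19 female-biased genes, 6 had a mean of at least 1 FPKM, and 5 of these (83.3%, against 6.72% of all genes) had a 2-fold range. The highest was Prlr, the prolactin receptor, at 52.9, 44.9 and 39.5 FPKM. Besides Cyp2a4, Cyp2b9 read 26.5, 17.8 and 3.85 FPKM and Cyp3a44 3.65, 1.12 and 0.80 FPKM, both highest in replicate 1. Ntrk2, a neurotrophin receptor, read 0.53, 0.98 and 4.86 FPKM and was highest in replicate 3. Sult2a1, a sulfotransferase of female liver, was listed at 0 in all 3 libraries. The female-biased genes thus did not share an order of the libraries.

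Pericentral and periportal genes mark the opposite zones of the liver lobule. The 13 genes of the pericentral zone, around the central vein, summed to 3695, 4559 and 4427 FPKM, and 1 of them, Rhbg, an ammonium carrier, had a 2-fold range at 9.70, 3.97 and 5.47 FPKM. Glul, which makes glutamine from ammonia around the central vein, read 148, 204 and 190 FPKM. The 15 genes of the periportal zone, where blood enters, summed to 5133, 5294 and 5061 FPKM, and 4 of them (26.7%, against 6.72% of all genes) had a 2-fold range, also under each of the other scalings. Pck1 was among them, and none of the 15 differed 2-fold between replicates 2 and 3, against 0.915% of all genes. Cyp1a2, a pericentral P450, read 371, 310 and 327 FPKM.

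Of 18 transcription factors of hepatocytes, all had a mean of at least 1 FPKM. A 2-fold range under the deposited scale was seen in 2 (11.1%, against 6.72% of all genes). Their sum was 860, 896 and 905 FPKM. Mlxipl, which responds to glucose, led them at 128, 165 and 179 FPKM, followed by Cebpa at 108, 125 and 119 FPKM. The heat shock genes had no member among 11 with a 2-fold range, and summed to 1168, 1298 and 1298 FPKM. For a list of 11 genes, none is near the 6.72% of all genes. The 11 immediate early genes with a mean of at least 1 FPKM, which are induced within minutes of a stimulus, had no member with a 2-fold range either, and 1 after scaling to the same total or median or after quantile normalization. Their median SD of log2(FPKM + 1) was 0.39, against 0.13 for the heat shock genes and 0.19 for all genes. Zfp36, which destabilises messenger RNA, read 53.1, 81.4 and 49.95 FPKM. Proliferation markers were low: Pcna, the sliding clamp of replication, led them at 14.0, 12.1 and 12.9 FPKM.

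Of the housekeeping families, the cytosolic ribosomal proteins held 2.55% ± 0.687 of the FPKM. A 2-fold range was seen in 17 of 82 (20.7%), against 6.72% of all genes. None of the 82 differed 2-fold between replicates 2 and 3, against 0.915% of all genes. Rps21 read 175, 37.0 and 63.0 FPKM, while Rpl23a read 430, 441 and 441 FPKM, so the members differed in spread. Among 18 cytoskeleton genes, 7 (38.9%) had a 2-fold range, with Tubb2a, a beta tubulin, at 134, 21.6 and 40.04 FPKM. None of the 18 differed 2-fold between replicates 2 and 3. Of the 20 iron and haem genes, 4 (20%) had a 2-fold range, and 1 differed 2-fold between replicates 2 and 3. Alas1, the rate-limiting enzyme of haem synthesis in liver, read 21.8, 100 and 30.2 FPKM and was high in replicate 2. Hmox1, which breaks down haem, read 27.0, 9.22 and 16.2 FPKM and was high in replicate 1.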

How the data were processed

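FPKM values of 21004 genes come from the authors' deposited table, which holds no counts. The submitters' processing notes name Bowtie 0.12.2 and mm10. How FPKM was computed, and on which annotation, is not given in the sources used here. Only the 3 control columns were used. Of the gene IDs, 20841 (99.2%) were matched to RefSeq GRCm38.p6, and 26 symbols stored as dates were restored. No gene of the table was matched to the family of mitochondrially encoded genes, so the shares of FPKM include none assigned to it. That family, and a list of nuclear retained RNAs, had no member in the table and are still counted below.

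Gene families (34) and gene lists (28) were taken by symbol, and the members and lists were chosen with earlier results of these data known. Shares were taken of each library's FPKM total. Spread was the SD of log2(FPKM + 1) over genes with a mean of at least 1 FPKM. A 2-fold range means that (highest + 1)/(lowest + 1) was at least 2. With 3 libraries of 1 group no test was made. The added 1 understates the change of low genes. The ranking was tested on simulated data with a wide gap in spread between variable and other genes and no counting error. That test does not show how stable the ranking is in these libraries.

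Depth was estimated from the steps of low values, using transcript lengths up to 2500 bases, and limits the precision of low genes. Genes named are the 30 highest, the 25 most variable and 5 least variable (mean of at least 10 FPKM) without predicted genes, up to 4 highest and 4 most variable members of each family or list, marker genes listed at 0, and all Mup and haemoglobin genes. Some genes that the rule names are not reported here. Arntl, Gata1 and Gstp2 fall outside this rule and were chosen after their values were seen. Alternatives were pseudocounts, filters, scalings, other measures of spread and leaving out each library. Python 3.11.15, pandas 2.3.3 and numpy 2.4.6 were used.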

Additional observations from a re-analysis of the deposited data

How the results depend on the processing

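Leaving the Mup genes out of total and families moved the share of the 10 highest genes to 22.8%, of the secreted families to 37.3% and of the metabolic families to 22.1%, and the genes needed for 50% of FPKM to 109. The count of 683 genes with a 2-fold range became 1142 and 1229 with pseudocounts of 0.1 and 0.01, 451 and 344 with a mean of at least 5 and 10 FPKM, and 1040 with libraries scaled to the same total. Leaving out 1 library gave 93 to 600, the lowest without replicate 1. Of the 25 most variable genes, predicted genes included, 11 and 7 were shared with pseudocounts of 0.1 and 0.01, 15 with a mean of at least 10 FPKM, 14 by coefficient of variation, and 5 to 21 without 1 library, the lowest again without replicate 1. Of the 30 highest genes, 28 to 30 were shared under every alternative run. Without 1 library the share of the 10 highest genes was 27.9% to 36.3%, of secreted families 51.2% to 58.3%, of metabolic families 14.7% to 17.2% and of Mup genes 21.6% to 34.3%, and 25.5 to 50 genes reached 50%. Added after seeing the data, 541 genes had a 2-fold range on totals without the Mup genes, and Mup without Gm21320 held 25.5%. No paired analysis was possible because only 1 group was described. Depth limits the low genes, whose spread holds counting error, and the cause of these shifts was not tested.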
